A study of Mus musculus with 6 samples.

Results

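The regions described here were 212 long runs of closely spaced probes on a mouse promoter and CpG island methylation array. They were found from the probe positions alone (build mm9), with control spots and the sex chromosomes left out. Neighbouring probes were joined into a run as long as their starts were no more than 500 bp apart, and runs of 15 or more probes were kept. The 212 runs held 4102 of the array's 174638 probes (2.35%), and they were 212 of its 22574 runs of 3 or more probes. Another 9 runs of 15 or more probes lay on chromosome X or Y and were left out. No measured value entered this rule, though earlier results of these data were known when the runs were chosen.

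Hypothalamic tissue was taken at 16 weeks from the offspring of dams that received inulin, a plant fibre broken down by gut bacteria (inulin group, 3 arrays). The obesity group (3 arrays) was the offspring of obese dams, and its labels also name a maternal high fat diet. The labels do not say what else the inulin dams were fed, and the names of the deposited files join obesity and inulin for that group. Whether each sample had a litter of its own is not stated either, and p-values therefore measure only the spread between these samples, which may be technical. Because the array measures DNA and its files name no gene, the tissue could not be checked against marker genes.

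Methylated DNA immunoprecipitation (MeDIP) uses an antibody to pull down DNA fragments that carry methylated cytosine, so densely methylated CpG-rich DNA is enriched over the input DNA. In mammals most CpG sites outside CpG islands are methylated, while islands at active or poised promoters mostly are not. A long tiled run can therefore cross both kinds of DNA, and a profile along it can show methylated and unmethylated stretches side by side.

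Each array compared the MeDIP DNA (red channel, Cy5) of a sample with its own input DNA (green channel, Cy3). The value of a probe was log2 of red over green, with each array's median set to 0, and the level of a run was the mean over its probes. A level above 0 thus means more enrichment than at the median probe of that array, not a methylation percentage. Within the 212 runs, 77.2% of the probes had a MeDIP signal well above background on all 6 arrays and 92.9% had such an input signal. Scan identifiers in the file headers put all 3 inulin arrays in scan 1, obesity arrays 1 and 3 in scan 2 and obesity array 2 in scan 3, so scan and group cannot be told apart. Precision is limited by having 3 arrays per group.

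Most of the 212 runs were just past the length needed. They held 15 to 182 probes with a median of 16, and they spanned 2964 to 40459 bp. The starts of neighbouring probes lay a median of 209 bp apart. Chromosome 2 held 25 runs, chromosome 7 held 21, chromosome 9 held 16 and chromosome 11 held 15. Only 12 runs had 30 or more probes, with 825 probes in all. Runs also sat near one another: 39 of the 212 fell into 14 clusters of runs within 100000 bp. The largest cluster held 7 runs, at chr13:23744017-23855897. Another held 5 runs, at chr2:174100927-174176708. Just inside the threshold, the 78 runs of 15 probes had a median level of 0.09 and a median difference, inulin minus obesity, of -0.02. Just outside it, the 110 runs of 14 probes had a median level of -0.0026 and a median difference of 0.03.

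The runs differed widely in level. Over the 6 arrays the level ran from -2.37 to 0.996, with a median of 0.10 and quartiles of -0.28 and 0.34. The highest was at chr8:11006558-11009708, and the next were at chr7:148262841-148265951 (0.86), chr12:86215461-86218734 (0.78), chr9:107569232-107572497 (0.76) and chr17:25030765-25033845 (0.69). The lowest was at chr6:130014889-130018451, where only 4 of 15 probes had a MeDIP signal well above background on all arrays. Above it came chr12:88604695-88608335 (-1.33), chr7:30690624-30693981 (-1.27), chr14:55303708-55306841 (-0.97) and chr3:96026670-96031942 (-0.97). Across the 212 runs, level and mean probe length had a correlation of -0.72. Probe length is set by the array's design, and its part in the levels was not tested.

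Neighbours in this order were not always apart. At the run of highest level on chromosome 8 the inulin arrays gave 0.80, 0.80 and 0.84, against 1.14, 1.17 and 1.23 on the obesity arrays. At the next, at chr7:148262841-148265951, they gave 1.09, 0.999 and 0.81 in the inulin group, against 0.72, 0.86 and 0.68 in the obesity group. The groups did not overlap at the first and overlapped at the second. In the inulin group alone the run on chromosome 7 was the higher of these 2, at 0.97 ± 0.14 against 0.81 ± 0.02 on chromosome 8 (SD, n = 3). At the lowest run, on chromosome 6, the levels were -2.35, -2.30 and -2.09 on the inulin arrays, against -2.35, -2.61 and -2.54 on the obesity arrays. All inulin values lay above the obesity values there, the nearest pair by less than the second decimal shows, and the difference of 0.25 did not pass (limma, adjusted p = 0.13).

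The ratio varied widely along a run. The range of probe means along a run, each probe averaged over the 6 arrays, had a median of 3.47 log2 units, from 1.05 to 7.78. The widest was at chr13:23825014-23838932, where 65 probes ran from -4.15 at 7003 bp to 3.63 at 12227 bp from the first probe. The next were chr3:105761116-105764406 (range 6.46), chr3:96042396-96053751 (5.93), chr6:66985324-66988529 (5.93) and chr4:21773492-21776776 (5.92). The flattest were chr19:8664444-8668081 (1.05), chr18:21808768-21812131 (1.36), chr9:50558277-50561502 (1.58), chr12:86516444-86519521 (1.59) and chr17:37003634-37006945 (1.65). All 5 of the flat runs had a level above 0, from 0.34 to 0.66.

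The shape of the profiles was shared by all arrays. Over the probes of the 212 runs, with each run's mean removed, the correlation was 0.956 to 0.972 between inulin arrays, 0.909 to 0.960 between obesity arrays and 0.896 to 0.934 between an inulin and an obesity array. These are descriptions over the same probes, which share the array's design. Neighbouring probes were weakly alike. The correlation of the level between a probe and the next in its run was 0.36 among the most closely spaced pairs (n = 3134), 0.36 at middle spacing (n = 577) and 0.33 at the widest spacing, up to 500 bp (n = 177), so it changed little with distance in this range. With each run's mean removed, which lowers such values in short runs, it was 0.23 for the next probe, 0.05 for the second next and -0.01 for the third.

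Sustained stretches were common but short. A stretch was taken as 3 or more neighbouring probes whose mean over the 6 arrays was above 0.5 or below -0.5. There were 146 high stretches in 113 runs and 129 low stretches in 91 runs. Both kinds were present in 43 runs and neither in 51. The median stretch held 3 probes in each kind. The longest high stretch had 11 probes over 2246 bp, at the end of the longest run, at chr7:149803993-149806238. The longest low stretch had 20 probes over 4049 bp, at chr2:174172660-174176708. Probes averaged 46.0 bp in high stretches and 53.2 bp in low stretches.

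The longest run lay at chr7:149765780-149806238, with 182 probes over 40459 bp. Its level was 0.40, 0.38 and 0.24 on the inulin arrays, against 0.24, 0.25 and 0.18 on the obesity arrays. Inulin arrays 1 and 2 lay above all obesity arrays while inulin array 3 lay among them, and the difference of 0.12 did not pass the threshold (limma, adjusted p = 0.32). Most of the run stayed near 0. In bins of 5 kb from the first probe, the first 6 bins had inulin means of -0.01 to 0.35 and obesity means of -0.14 to 0.36. From 35 to 40 kb the ratio was higher on all inulin arrays: 1.04, 1.03 and 0.80 in the inulin group, against 0.50, 0.71 and 0.20 in the obesity group. Tested as a piece of its own among 22610 pieces, a test chosen after the data were seen, this end differed by 0.49 (limma, adjusted p = 0.051), and by 0.67 with the arrays on an equal scale (limma, adjusted p = 0.024; 0.018 to 0.066 over the settings tried for pieces). Those settings changed the background correction and normalization alone. Pieces were not tested with an array left out, with scan as a block or with filters on dim probes. Both channels were bright there, with a MeDIP signal of 2.96 and an input signal of 1.94 in the inulin group, against 2.50 and 1.96 in the obesity group, in centred log2 units. The MeDIP difference alone did not pass (0.46; limma, adjusted p = 0.34).

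**Figure D1:**
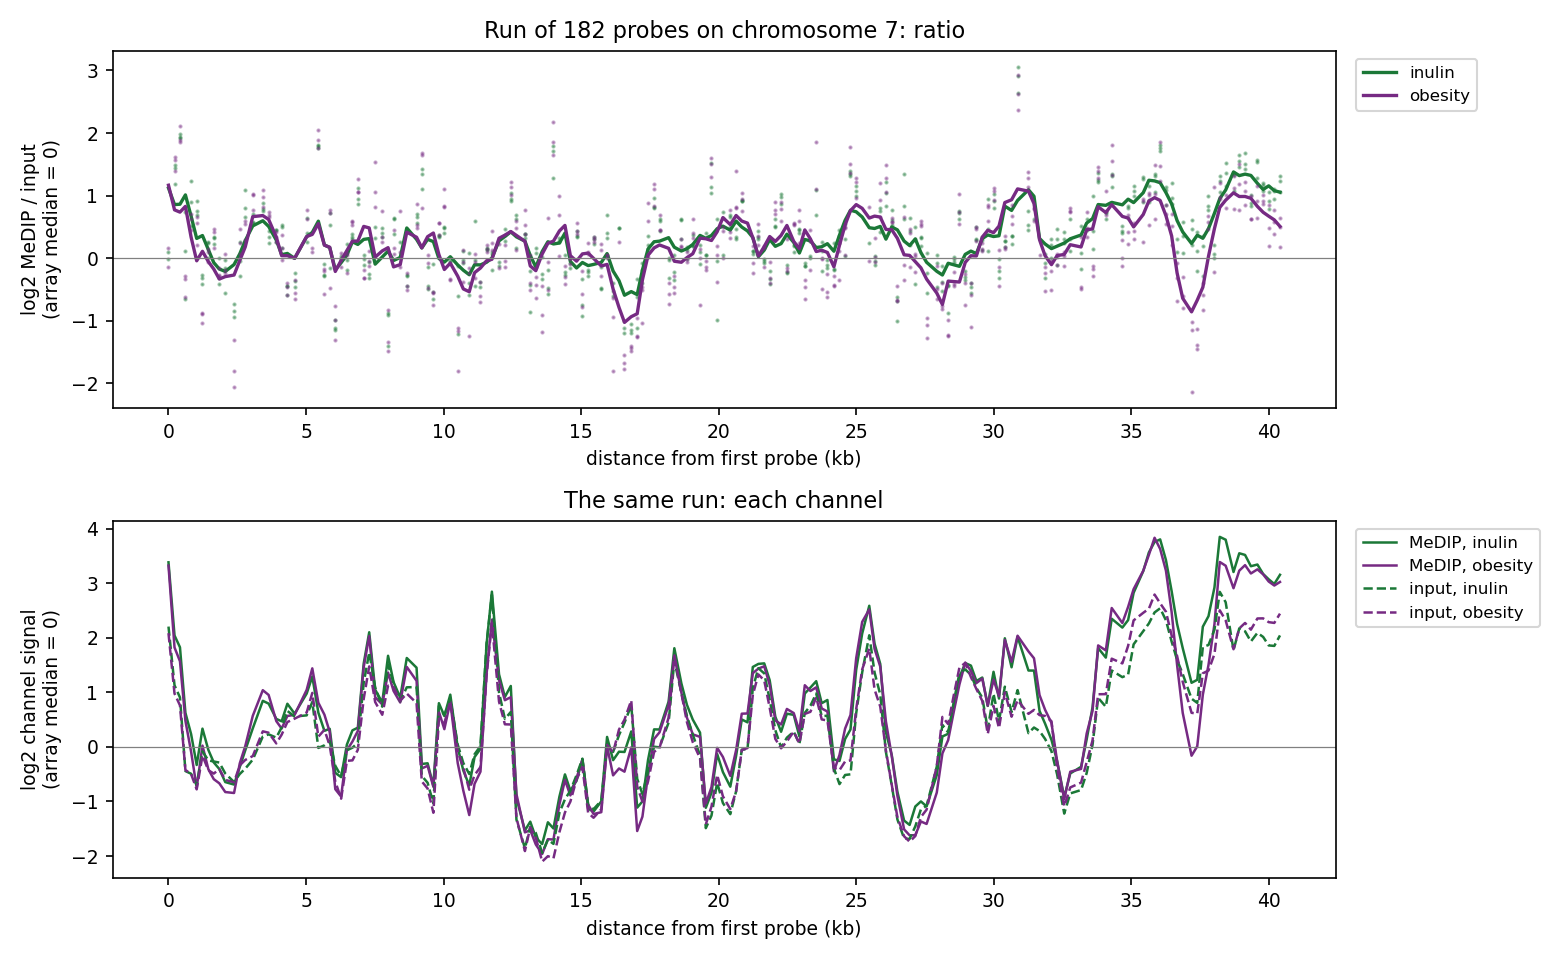
Profile along the longest run, 182 probes on chromosome 7, by distance from its first probe. Upper panel: log2 MeDIP over input of each probe on each array (dots) and the group mean as a running mean of 5 probes (lines), inulin in green and obesity in purple. Lower panel: the MeDIP (solid) and input (dashed) channels in centred log2 units. The last 5 kb are bright in both channels, and there the inulin ratio lies above the obesity ratio (bin means of 0.96 for inulin and 0.47 for obesity from 35 to 40 kb).

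The second longest run was the last of the 5 neighbours on chromosome 2, from 174147160 to 174176708, with 129 probes. Its level was -0.36, -0.46 and -0.35 on the inulin arrays, against -0.53, -0.64 and -0.53 on the obesity arrays, without overlap. The difference was 0.17 (limma, SE 0.073, adjusted p = 0.15). It held the most single probes past the threshold of any run, 18 higher and 2 lower in the inulin group, of 125 tested (8.21% of all probes passed, limma, adjusted p under 0.05). After it came the run of 182 probes, with 9 higher and 1 lower of 174, and chr13:23766152-23780898, with 5 higher and 3 lower of 58. Along the run on chromosome 2 the ratio alternated. The section at 5 to 10 kb had a mean of 0.67 in the inulin group, against 0.60 in the obesity group, the next 5 kb had -0.86 for inulin, against -0.84 for obesity, and the run ended in the low stretch of 20 probes. In that stretch the ratio was -0.92, -1.14 and -0.95 in the inulin group, against -1.54, -1.78 and -1.53 in the obesity group.

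The last 5 kb piece of that run, 22 probes from 174172252 to 174176708, was less depleted in the inulin group. Its ratio was -0.84, -1.04 and -0.88 on the inulin arrays, against -1.39, -1.62 and -1.38 on the obesity arrays. The groups did not overlap, and the difference of 0.55 passed the threshold among all 22610 pieces (limma, adjusted p = 0.020). Of its 22 probes, 9 were called higher and 0 lower, and 21 had a MeDIP signal above background on all arrays. The MeDIP signal was 0.68 in the inulin group, against 0.35 in the obesity group, and the input signal was 1.55 for inulin, against 1.74 for obesity. Neither channel passed alone (limma, adjusted p = 0.18 for MeDIP and 0.33 for input). On an equal scale the difference was 0.28 and no longer passed (limma, adjusted p = 0.076). In the authors' deposited table it did not pass either (limma, adjusted p = 0.13; 0.010 to 0.13 over the settings tried for pieces, which left out no array). In all, 5 of 242 such pieces of long runs passed (7.42% of all pieces did), and the other 4 were whole runs described below.

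**Figure D2:**
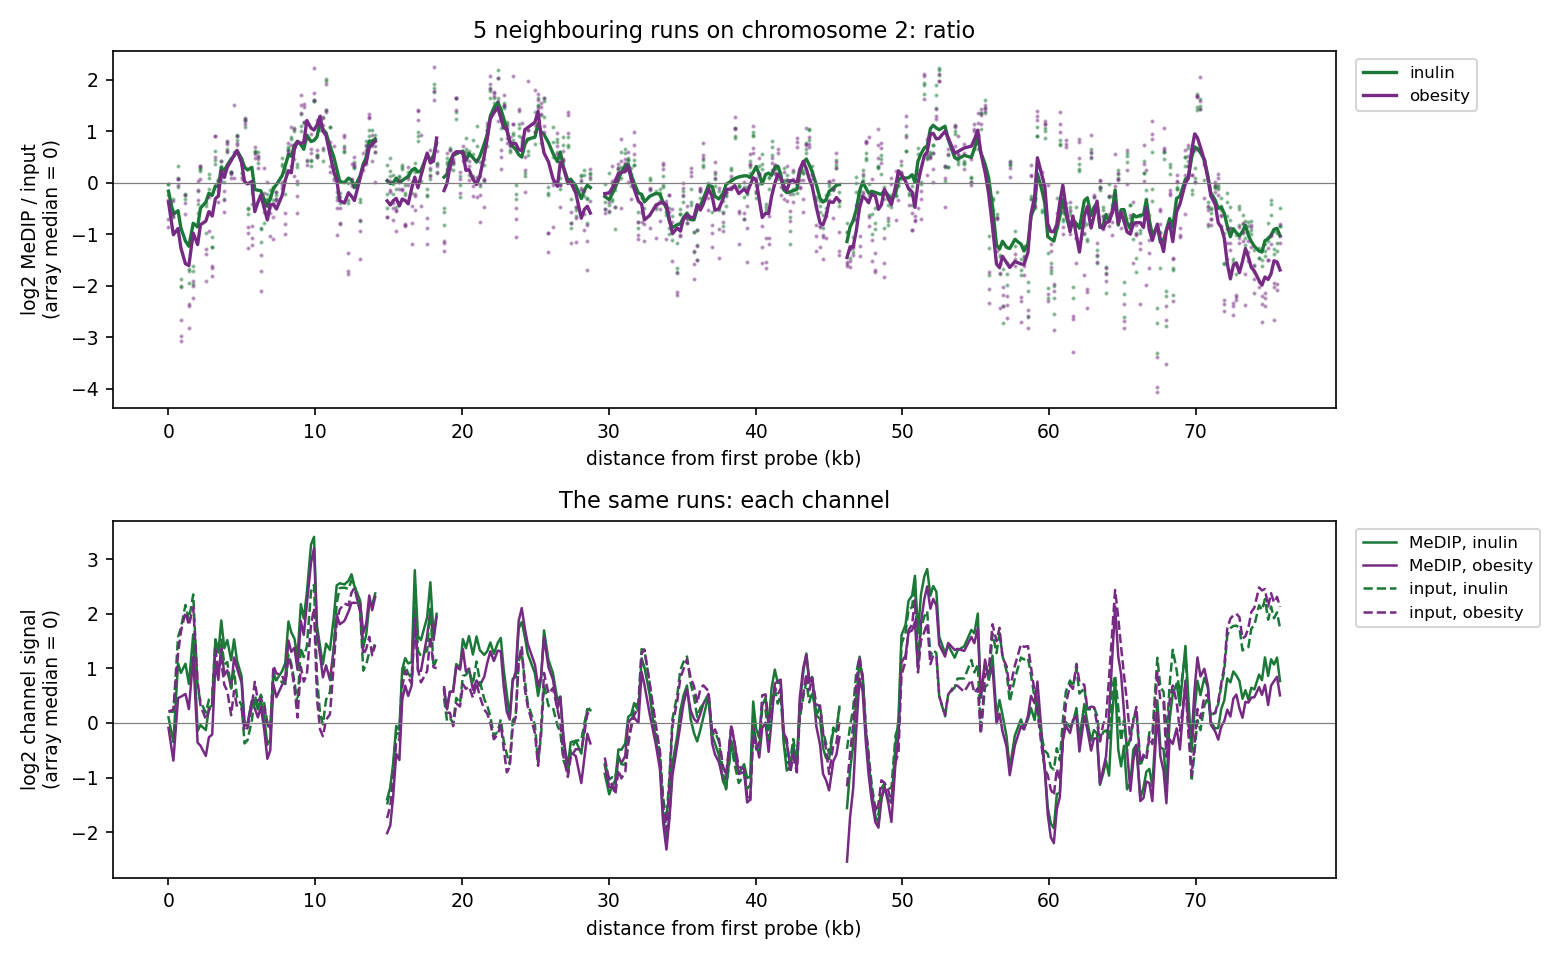
The 5 neighbouring runs on chromosome 2, by distance from the first probe of the first run, drawn as for the run on chromosome 7. The gaps in the lines are stretches without probes spaced closely enough. The ratio falls at the far end of the last run in both groups, to -0.92 in the inulin group, against -1.47 in the obesity group over its last 5 kb.

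The other 4 runs of this neighbourhood, each also with a positive difference, lay at chr2:174100927-174115069 (61 probes, difference 0.18; limma, adjusted p = 0.23), chr2:174115825-174119241 (16 probes, 0.28, adjusted p = 0.062), chr2:174119702-174129729 (43 probes, 0.14, adjusted p = 0.33) and chr2:174130654-174146696 (69 probes, 0.16, adjusted p = 0.20). None passed. The run of 16 probes is named with its neighbours, after its value was seen. On an equal scale all 5 differences were also above 0, from 0.07 to 0.31. Neighbouring runs are not independent of one another. In the cluster of 7 runs on chromosome 13 the differences were 0.08 to 0.27 with each array's median set to 0, and -0.07 to 0.16 on an equal scale, where 3 of the 7 were below 0.

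Of the 12 runs with 30 or more probes, 11 had a higher level in the inulin group. The differences ran from -0.10 to 0.18, with a median of 0.13, against a median of 0.03 over all 22574 regions. Most of the 12 runs are neighbours of another, on chromosomes 2, 7, 11 and 13, so they do not count as independent members. Of all 212 long runs, the difference was above 0 at 103, and the count above 0 over all regions was not made. The exception was chr3:96042396-96053751, with -0.23, -0.28 and -0.17 on the inulin arrays, against -0.16, -0.10 and -0.10 on the obesity arrays. Differences above 0 numbered 10 of 12 on an equal scale, 10 with normexp background correction, 11 with loess, 9 after quantile normalization and 8 in the authors' deposited table. No run of this size passed the adjusted threshold of 0.05 by limma, and 3 of the 12 had groups that did not overlap. Among all 22572 runs with 6 values, 35.0% did not overlap.

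The main comparison asked at which runs the ratio differed between the inulin and the obesity group. Of the 212 runs, 4 passed the adjusted threshold of 0.05 (1.89%; limma, Benjamini-Hochberg over 22574 regions), 2 higher and 2 lower in the inulin group. Over all regions 7.42% passed, 5.61% higher and 1.81% lower. At an unadjusted p under 0.05 there were 38 long runs (17.9%), against 28.6% of all regions. The groups did not overlap at 72 long runs (34.0%), 27 higher and 45 lower in the inulin group. Over all regions the shares were 35.0%, 20.8% and 14.2%. The split between directions moved with some settings. With loess 16 long runs passed, 1 higher and 15 lower, beside 2792 of all 22574 regions, 1547 higher and 1245 lower. With normexp background correction 5 long runs passed, 1 higher and 4 lower, beside 1921 regions, 1027 higher and 894 lower. With the arrays on an equal scale 2 long runs passed, 1 higher and 1 lower, beside 1002 regions, 522 higher and 480 lower. The 212 differences had a median of -0.01 and ran from -0.36 to 0.35.

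Leaving out an array changed the calls over the whole array. When inulin array 1, 2 or 3 was left out, limma called 0 of all 22574 regions, and 21, 17 and 24 of the 212 long runs had an unadjusted p under 0.05. When obesity array 1, 2 or 3 was left out, it called 2, 5 and 1 long runs, beside 952, 2171 and 632 regions in all. With scan as a random block 0 regions passed, and 15 long runs had an unadjusted p under 0.05. The sizes of the 4 called differences moved little without 1 inulin array: 0.33 to 0.37 on chromosome 17, 0.30 to 0.33 on chromosome 3, -0.38 to -0.36 on chromosome 8 and -0.33 to -0.30 on chromosome 13. They moved more over all alternatives, which also left out each obesity array. The ranges were then 0.10 to 0.40 on chromosome 17 and -0.13 to 0.38 on chromosome 3. On chromosome 8 the range was -0.40 to -0.12, and on chromosome 13 it was -0.64 to 0.09. The share of runs past the threshold was 11.8% for runs of 3 to 5 probes, 7.38% for 6 to 8, 5.41% for 9 to 11, 2.04% for 12 to 14 and 2.13% for 15 to 19, and it was 0 of 24 for 20 or more. The median size of the difference was 0.16 for 3 to 5 probes and 0.10 for 15 to 19, and the median SE was 0.09 and 0.08.

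The run with the largest rise lay at chr17:37136865-37140939, with 16 probes. Its ratio was -0.0007, -0.06 and -0.06 on the inulin arrays, against -0.32, -0.56 and -0.31 on the obesity arrays. The difference was 0.35 (limma, SE 0.086, adjusted p = 0.042). In the channels, MeDIP was higher by 0.34 and input by 0.01. Of the probes that made up this difference, those at 916 and 2501 bp from the first probe had neither channel above background on any array. Over probes above background in both channels the difference was 0.12 and did not pass (limma, adjusted p = 0.24; 0.030 to 0.30 over all alternatives). The probe at 3831 bp was the only one called by itself: -0.78, -1.26 and -0.98 in the inulin group, against -2.11, -2.84 and -2.25 in the obesity group.

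A smaller rise was measured at chr3:41366020-41369150, with 15 probes. The inulin arrays gave -0.32, -0.29 and -0.27, against -0.49, -0.73 and -0.61 on the obesity arrays. The difference was 0.32 (limma, SE 0.081, adjusted p = 0.048), with the MeDIP signal higher by 0.29 and the input signal lower by 0.01. It came from the low part of the profile. The largest probe differences, 1.21 and 1.04, lay at 1991 and 2193 bp, where the MeDIP signal was above background on 3 and 1 of the 6 arrays. With the median of the probes in place of their mean the difference turned to -0.13, and over probes above background in both channels it was 0.05 (limma, adjusted p = 0.41 and 0.64; 0.040 to 0.64 over all alternatives).

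The run with the largest fall was the one of highest level, at chr8:11006558-11009708, whose array values are given above. The groups differed by -0.36 (limma, SE 0.068, adjusted p = 0.024). All 15 probes were 45 bp long, and 13 of the 15 were lower in the inulin group. In the channels, MeDIP was lower by 0.10 and input was higher by 0.28, the larger of both shifts. Over probes above background in both channels the difference was -0.29 and still passed (limma, adjusted p = 0.038). On an equal scale, where 4.44% of all regions and 2 of the 212 runs passed, it was -0.14 and did not (limma, adjusted p = 0.25; 0.0095 to 0.25 over all alternatives).

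The other fall was at chr13:22132837-22135937, with 15 probes. The inulin arrays gave -0.11, -0.07 and -0.13, against 0.15, 0.16 and 0.30 on the obesity arrays, a difference of -0.31 (limma, SE 0.073, adjusted p = 0.039). The MeDIP signal was lower by 0.20 and the input signal higher by 0.13. The difference was carried by the part of the run with the highest ratios, from 1202 to 2439 bp. There the probe at 2439 bp gave 1.84, 1.74 and 1.78 in the inulin group, against 3.12, 3.62 and 3.16 in the obesity group. Those at 1828 and 2019 bp were lower by 1.06 and 0.98. All 3 were above background in both channels on all arrays, while the probe at 607 bp, in the low part, was higher by 0.80.

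This run passed more alternatives than the other 3. It was called with normexp, loess, an equal scale, quantile normalization and in the authors' deposited table (difference -0.23; limma, adjusted p = 0.049). Over probes above background in both channels the difference was -0.64 (limma, adjusted p = 0.027). Only 8 of the 15 probes had a MeDIP signal above background on all arrays, and the probe at 607 bp was not among them. That filter selects on the MeDIP signal, so its larger difference covers only part of the run. It did not pass when any array other than obesity array 2 was left out, with differences of -0.33 to -0.26 (limma, adjusted p of 0.065 to 0.14), or with scan as a random block, with a difference of -0.31 (limma, adjusted p = 0.16). With the median of the probes the difference turned to 0.09 (limma, adjusted p = 0.74; 0.013 to 0.74 over all alternatives).

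**Figure D3:**
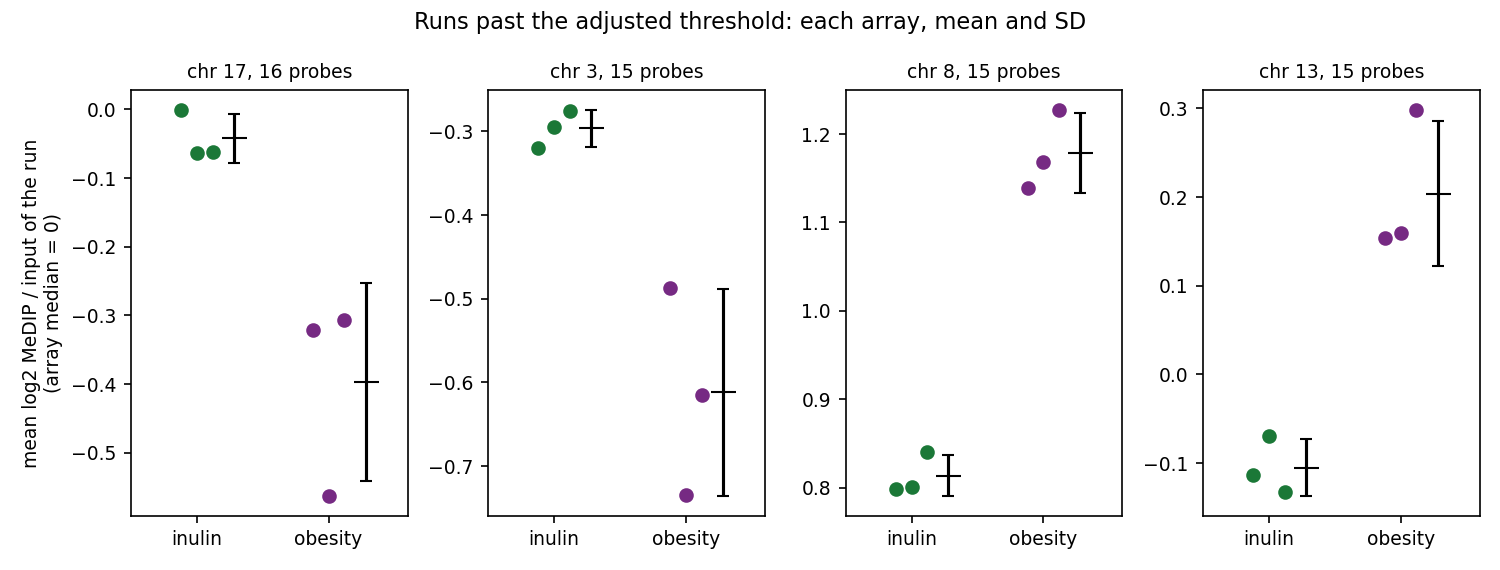
Level of the 4 runs past the adjusted threshold, 1 dot per array with the mean and SD beside it, inulin left and obesity right. Each panel has its own vertical axis in log2 units. The groups are separate in each, higher in inulin on chromosomes 17 and 3 and lower in inulin on chromosomes 8 and 13.

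A second comparison asked whether the shape of the profile differed. For each run and array, the mean of the outer probes (25% on each side, rounded down) was set against the mean of the probes between them, a measure in which a shift of the whole array cancels. Of the 212 runs, 122 were lower at the edges than in the centre and 90 higher. The edge minus centre value differed between groups at 13 runs (6.13%; limma, adjusted p under 0.05), 10 higher and 3 lower in the inulin group. Over the 13130 runs of 8 or more probes 9.38% passed, 4.71% higher and 4.67% lower. At an unadjusted p under 0.05 there were 44 long runs, against a share of 28.7% over all. When inulin array 1, 2 or 3 was left out, 0 long runs passed, beside 14, 25 and 205 of all 13130 runs. When obesity array 1, 2 or 3 was left out, 2, 16 and 5 long runs passed, beside 583, 1605 and 886 runs in all. On an equal scale 4 long runs passed, beside 873 in all, and with scan as a random block 0 passed, beside 27 in all.

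At the 5 largest rises the edges lay below the centre in both groups, and less so in the inulin group. The largest was at chr19:10277492-10280832: the edge minus centre value was -0.35, -0.31 and -0.37 on the inulin arrays, against -0.81, -1.28 and -1.65 on the obesity arrays. The difference was 0.91 (limma, SE 0.19, adjusted p = 0.022). Of its 15 probes, 12 had a value on all 6 arrays, and over those the difference was 0.76 (limma, adjusted p = 0.010). With about equal numbers of outer probes on each side and of middle probes it was 0.21 and did not pass (limma, adjusted p = 0.36; 0.0099 to 0.36 over all alternatives).

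The other rises lay at chr9:51854168-51858082 (difference 0.61; limma, adjusted p = 0.047), chr1:9736435-9739674 (0.57, adjusted p = 0.023), chr11:59317891-59321261 (0.52, adjusted p = 0.037) and chr1:156101588-156105263 (0.49, adjusted p = 0.034). The run at chr1:9736435-9739674 had the deepest edges of all 212, with an edge minus centre level of -2.50. Its values were -2.24, -2.28 and -2.11 in the inulin group, against -2.72, -2.94 and -2.69 in the obesity group. On an equal scale its difference was 0.01 (limma, adjusted p = 0.98). The call at chr13:22132837-22135937 was among the 10 rises too, at 0.48 (limma, adjusted p = 0.035). Its 4 probes called lower and the 1 called higher all lay among the centre probes.

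The 3 falls were at chr13:23841690-23844683, chr12:62622310-62626012 and chr16:17891323-17894778. On chromosome 13 the values were 0.23, 0.54 and 0.67 in the inulin group, against 1.11, 1.96 and 1.07 in the obesity group, a difference of -0.90 (limma, SE 0.23, adjusted p = 0.038). Only 6 of its 15 probes had a MeDIP signal above background on all arrays. Over probes above background in both channels the difference was -0.64 and did not pass (limma, adjusted p = 0.14). The difference was -0.67 on chromosome 12 (limma, adjusted p = 0.041) and -0.46 on chromosome 16 (adjusted p = 0.036). On chromosome 12 only 13 of 16 probes had a value on all 6 arrays, and over those the difference was -0.47 (limma, adjusted p = 0.041). Over such probes it was -0.49 on chromosome 16 (limma, adjusted p = 0.023) and -1.04 on chromosome 13 (adjusted p = 0.014). Of these 3 falls, 0 passed on an equal scale.

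**Figure D4:**
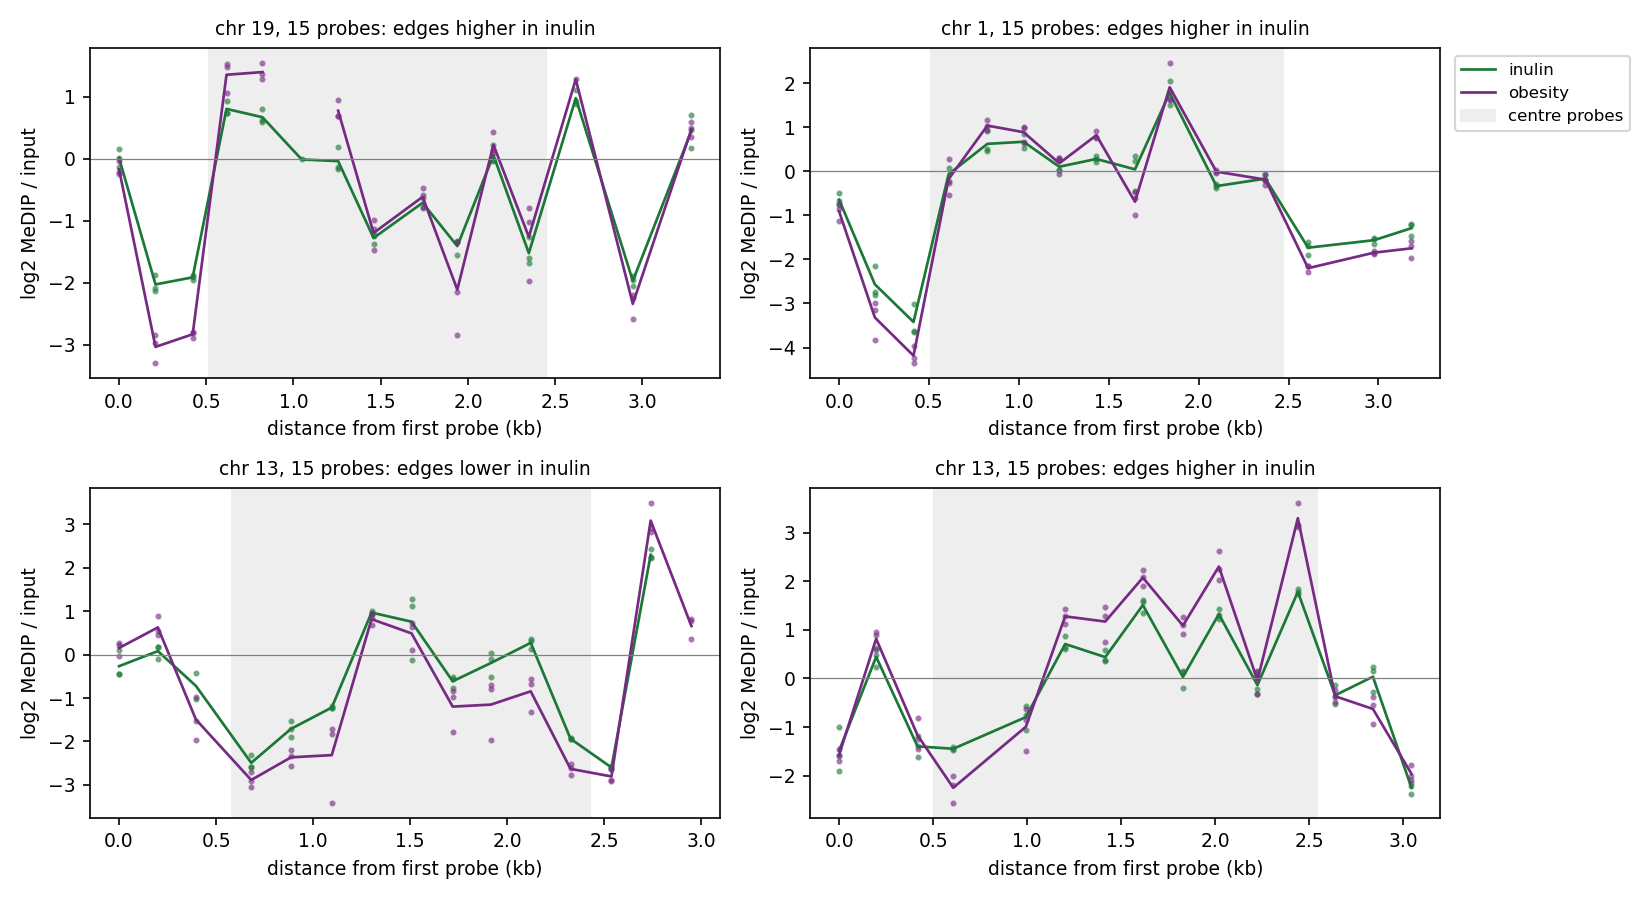
Profiles along 4 runs with a called edge minus centre difference, by distance from the first probe: log2 MeDIP over input of each probe on each array (dots) and group means over the arrays with a value (lines), inulin in green and obesity in purple, with the centre probes shaded. The broken line on chromosome 19 and the short one on chromosome 13 mark probes without a value in a group. On the lower right, chr13:22132837-22135937, the inulin mean lies below the obesity mean by 1.52 at 2439 bp and above it by 0.80 at 607 bp, both among the centre probes.

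The channels were also tested alone, to see which of them moved. In the MeDIP channel limma called 0 long runs (0.253% of all regions). Of the 212, 35 had an unadjusted p under 0.05 (21.0% of all regions). In the input channel it called 2, both higher in the inulin group (2.14% of all regions, and 1.24% in that direction). There 50 had an unadjusted p under 0.05 (24.4% of all regions). At chr11:77989669-77992691 the input signal was 0.75, 0.86 and 0.99 on the inulin arrays, against 0.33, 0.04 and 0.34 on the obesity arrays (limma difference 0.63, adjusted p = 0.0495). At chr9:20446462-20450382 it was 0.37, 0.42 and 0.55 on the inulin arrays, against -0.20, -0.26 and 0.01 on the obesity arrays (limma difference 0.59, adjusted p = 0.043). Neither run was called on the ratio, with differences of -0.13 on chromosome 11 and 0.01 on chromosome 9. There MeDIP was higher too, by 0.48 and 0.59.

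Over all 212 runs the input difference was above 0 at 157 and the MeDIP difference at 133, while the ratio difference was above 0 at 103. The median differences were 0.08 for the input and 0.06 for the MeDIP signal. Over all 22574 regions the medians were also above 0, at 0.04 for the input and 0.07 for the MeDIP signal. The input moved by more than the MeDIP signal at 100 of the 212. Both channels moved the same way at 160. After quantile normalization the input difference was above 0 at 129 of the 212 runs, the MeDIP difference at 104 and the ratio difference at 84.

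Single probes inside the runs were called about as often as over the whole array. Of 3988 probes tested, 327 passed (8.20%; limma, adjusted p under 0.05 over 170019 probes), 193 higher and 134 lower in the inulin group. Over all probes 8.21% passed, as given above, 5.12% higher and 3.08% lower. At an unadjusted p under 0.05 there were 1144 member probes, against 30.1% of all probes. No called probe was found in 67 runs, 3 or more in 35, and probes of both directions in 47. Such counts were not made for other runs, so they show nothing particular to the long runs. The direction went with probe length. Among probes of 45 bp, whose median level was 0.43, 31 of 2219 tested were higher and 95 lower. Among those of 60 bp, whose median level was -1.02, 66 of 346 tested were higher and 6 lower. Calls by probe length were not counted over the whole array, so this pattern is not shown to be particular to the long runs. The MeDIP signal was above background on all arrays at 88.4% of the 45 bp probes and at 36.4% of the 60 bp probes, and the part of dim signal in these directions was not tested. With equal scaling, 124 of these probes passed, 59 higher and 65 lower, beside 6038 of all 170019 probes, 2931 higher and 3107 lower. Without inulin array 1, 2 or 3 there were 14, 10 and 49, beside 925, 701 and 2224 of all probes.

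The direction of the group difference also went with the level of the run, and this turned with the scaling of the arrays. Among the 71 runs of lowest level, 56 were higher in the inulin group, with a median difference of 0.10. Among the 71 of highest level, 18 were higher, with a median of -0.08. When every array was divided by its own interquartile range, which made the arrays' spreads equal, the medians were -0.01 for the lowest and 0.02 for the highest. The counts above 0 were then 31 and 47. The interquartile range of all ratios was 1.37, 1.39 and 1.38 on the inulin arrays, against 1.62, 1.89 and 1.69 on the obesity arrays.

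**Figure D5:**
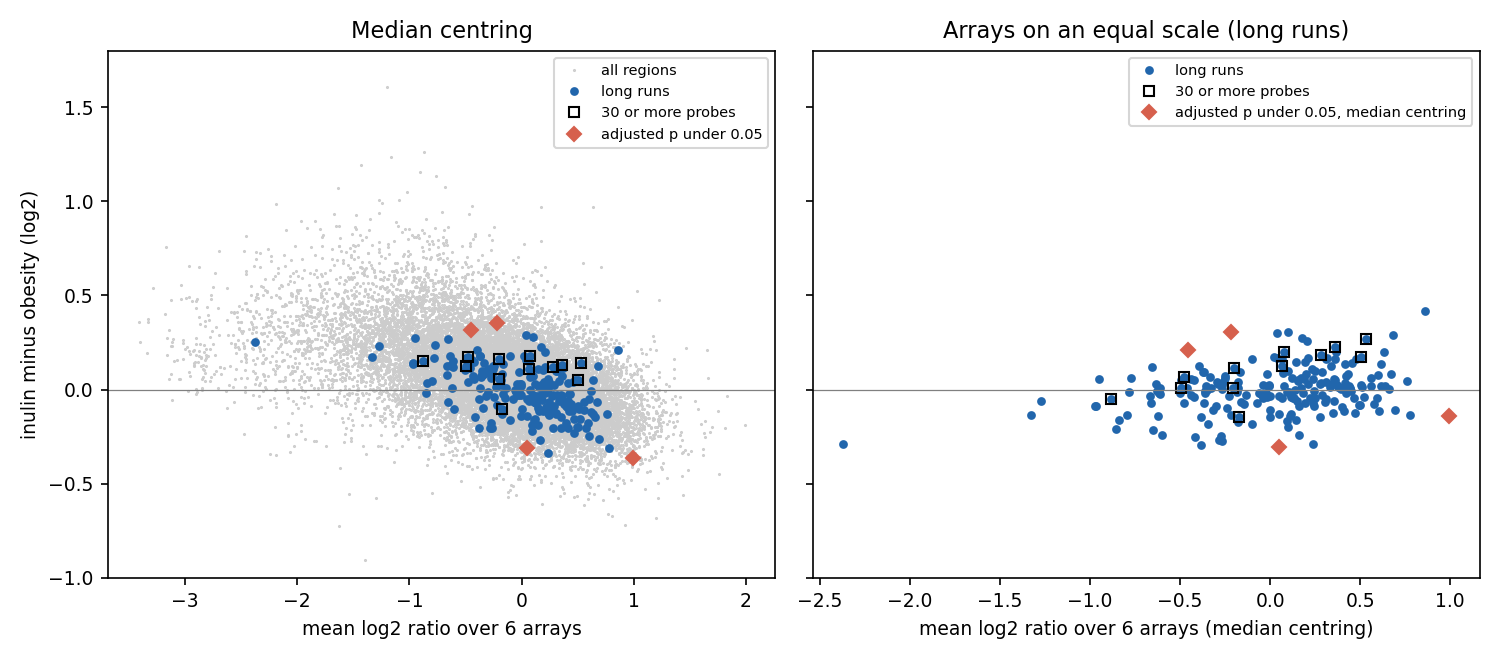
Difference in level between groups (inulin minus obesity, log2) against the mean level over the 6 arrays. Left: each array's median set to 0, with all regions in grey, the 212 long runs in blue, runs of 30 or more probes boxed and the 4 called runs as diamonds. Right: the long runs with all arrays on an equal scale. The downward slope on the left (median difference 0.10 among the lowest 71 runs and -0.08 among the highest 71) is not seen on the right (-0.01 and 0.02).

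The spread along a run showed the same contrast. The median SD of the ratio within a run was 0.85, 0.88 and 0.90 on the inulin arrays, against 1.03, 1.12 and 1.04 on the obesity arrays. The groups did not overlap and differed by -0.19 (two-sided exact permutation p = 0.1, as small as 3 against 3 arrays can give; adjusted p = 0.13 over 4 measures). On an equal scale it turned to 0.03 (exact permutation p = 0.3). The median level of the runs averaged 0.07 ± 0.02 over the inulin arrays and 0.09 ± 0.02 over the obesity arrays (SD, n = 3 each; exact permutation p = 0.2). The median MeDIP signal was 0.29 ± 0.02 over the inulin arrays and 0.19 ± 0.03 over the obesity arrays, and the median input signal was 0.15 ± 0.02 over the inulin arrays and 0.04 ± 0.03 over the obesity arrays. The groups did not overlap in either channel (exact permutation p = 0.1 for both, adjusted p = 0.13).

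Compared with the 12393 autosomal runs of 8 to 14 probes, the long runs had a higher level on every array. The median level of long runs was 0.06 to 0.10 over the 6 arrays, against -0.06 to -0.01 for the shorter runs. The mean difference was 0.11 ± 0.03 (SD, n = 6 arrays; exact permutation test with signs turned within arrays, two-sided, p = 0.03125, as small as 6 arrays can give; adjusted p = 0.0417 over 4 measures). The MeDIP signal was higher by 0.17 ± 0.02 and the input signal by 0.06 ± 0.03, each in 6 of 6 arrays with the same p. The SD within a run was larger by 0.01 in 5 of 6 arrays and did not pass (exact permutation p = 0.0625). These tests compare arrays, which all carry the same probes, and do not treat runs as replicates. They ask only whether a gap recurred from array to array. A gap fixed by the probes would recur too, so they cannot tell whether long runs differ beyond these particular probes.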

How the data were processed

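Each of the 6 arrays gave 1 scanner file. Per the file headers, the deposited intensity values are the processed signals of Feature Extraction 11.0.1.1, which subtracts background and applies a linear dye factor. MeDIP DNA was labelled with Cy5 and input DNA with Cy3, per the labels' protocols. The authors' deposited table of values, used as an alternative, is a score whose log base, centring and making are not given in the sources used here. It is nearly centred, with medians of 0.061, 0.057 and 0.043 on the inulin arrays and 0.056, 0.054 and 0.054 on the obesity arrays, and correlates with the log2 ratios at 0.866 to 0.912. Array depth is not a count. Per array, 94.4% to 96.4% of probes had an input signal well above background, and 77.3% to 85.7% had such a MeDIP signal.

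From the deposited intensities, log2 of red over green was taken, outlier spots (1901 to 4863 per array) were left out and each array was centred on its median. Runs used starts at most 500 bp apart. All regions of 3 or more probes, all runs of 8 or more probes (edges) and all probes were fitted with limma 3.58.1 in R 4.3.3 (lmFit, eBayes), two-sided, with Benjamini-Hochberg adjustment over the whole table, needing values on 2 arrays per group. The fit was tested on simulated data with independent noise on each array. That noise holds no effect shared by the arrays of a scan, so the simulation cannot tell how often calls arise where scan and group coincide. Medians over runs, 1 value an array, were compared by exact permutation tests (scipy 1.17.1).

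Named runs are the 5 with most probes, the 3 longest, the 5 highest and 5 lowest in level, the 5 widest and 5 narrowest in range, those past the threshold (up to 10 per direction for the ratio, 5 for edges, 3 for a channel) and the 3 with most called probes. The runs, the naming rule and the tests were chosen with earlier results of these data known. Alternatives changed the background correction (normexp), the normalization (loess, equal scale, quantile, deposited table), filters on dim probes, the definition of a run, the summary of probes, blocks for scan or replicate number, and left out each array in turn. Pieces of 5 kb and means over probes with all 6 values were added after these data were seen. The files name no gene and no gene table or genome of mm9 was used here, so runs are given by position alone.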

Additional observations from a re-analysis of the deposited data

How the results depend on the processing

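The number of long runs called on the ratio by limma (4 of 212) was 16 with loess (1 higher, 15 lower), 2 with the arrays scaled equally, 1 with quantile normalization and 2 in the authors' deposited table. Over all 22574 regions (1675 called) these settings called 2792, 1002, 497 and 567. It was 8 with replicate number as a block, 0 with scan as a random block and 0 with the median of probes. It was 0 of 85 runs with gaps of at most 300 bp, 49 of 1720 with 10 or more probes, 0 of 24 with 20 or more and 11 over probes with all 6 values, and it ran from 0 to 5 without 1 array. Fewer or more runs enter where the definition of a run changes; for the other changes the cause was not tested. It was within 1.5 times with normexp (5), both filters (5 and 6), gaps of 1000 bp (6), the autosomes alone (4) and pieces of 5 kb (5). Higher and lower calls were 2 and 2 with median centring, 1 and 4 with normexp and 0 and 6 over probes above background in both channels. Edge minus centre calls (13) were 4 when scaled equally, 2 with quantile normalization, 6 in the deposited table, 0 with scan as a random block, 4 at 300 bp, 171 at 10 or more probes, 0 at 20 or more, 24 over probes with all 6 values and 0 to 16 without 1 array. The MeDIP channel had 0 calls except without obesity array 3 (1), a range of 0 to 1. Input calls (2) were 0 after quantile normalization, over probes with input above background, with the replicate block and with scan as a random block, 3 on an equal scale, and 0 to 1 without 1 array. Probe calls (327) were 653 with normexp, 497 with loess, 124 when scaled equally, 92 with quantile normalization, 100 in the deposited table, 5 with scan as a random block and 10 to 371 without 1 array. The difference in run level (-0.02) turned to 0.061 at 20 or more probes. That in spread within runs (-0.19) turned to 0.031 on an equal scale. Without 1 array these ran from -0.03 to -0.01 and from -0.21 to -0.16. Among named runs, chr13:22132837-22135937 turned to 0.089 and chr3:41366020-41369150 to -0.13 with the median of probes.

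Whether the replicate numbers pair the arrays is not settled. Deviations of same-numbered arrays correlated at -0.14, 0.28 and 0.33, and the first is below 0. Between arrays of different number the correlations ran from -0.38 to 0.22. So few pairs cannot decide the question. With the replicate block, 8 long runs and 2699 of all regions were called on the ratio, against 4 and 1675 without it. Edge calls numbered 14 and probe calls 335. The 3 arrays per group limit all values, as does the MeDIP signal, which was above background on all arrays at 77.2% of member probes.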
